A study of Mus musculus with 24 samples.

Results

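The genes described here are 10 markers of Kupffer cells, the resident macrophages of the liver sinusoids, in a count table of 54532 genes. They were chosen by name and not by a cutoff on a measured value, though with earlier results of these data known. They are Adgre1, Marco, Cd163, Vsig4, Fcna, Clec4f, Timd4, Cd5l, C1qa and Csf1r. All 10 were listed in the table and all 10 passed the filter on low counts that left 15090 genes for testing. Messenger RNA was sequenced from pieces of mouse liver in 24 libraries. The knockout mice (KO; Hlf-/-/Dbp-/-/Tef-/-) lacked all 3 PAR bZip transcription factors, which are clock-controlled activators, and the wild-type mice (WT) were Hlf+/+/Dbp+/+/Tef+/+. Both genotypes were fed ad libitum, aged 12 to 16 weeks and sampled every 4 h from ZT04 to ZT24, where ZT counts hours of zeitgeber time. Each of the 12 groups had 2 libraries, of which replicate 1 carries the letter I and replicate 2 the letter P in the labels, here called set I and set P. The labels do not say what the letters mean, which cell types lost the genes, or whether the 2 libraries of a group were taken from different mice. The p-values below therefore rest on the variation among these libraries, part of which may be technical.

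Kupffer cells sit in the liver sinusoids, where they take bacteria, dying cells, haemoglobin and iron out of the blood. They are kept alive by signals through the receptor encoded by Csf1r, and they carry scavenger receptors, complement receptors and lectins, and secrete opsonins that tag particles for uptake. In a whole piece of liver most RNA comes from hepatocytes, so these genes report on a minor cell type. A lower or higher level in such bulk samples cannot tell apart a change in the number of cells from a change in RNA per cell.

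Total counts ran from 14807940 to 17410682 in KO and from 14613001 to 19288322 in WT libraries. The deleted genes followed the labels in every library, with no overlap between genotypes. Dbp averaged 0.0199 CPM in KO and 15.4 CPM in WT, Tef 14.7 CPM in KO and 185 CPM in WT, and Hlf 1.55 CPM in KO and 72.7 CPM in WT, where CPM is a gene's count relative to the TMM-scaled total of its library. The 6 WT libraries of set I stood apart from the other 18. Across genes, the deviation of a library from the median library correlated with GC content, at r of -0.132 to 0.00926 in KO set I, -0.289 to -0.108 in KO set P, 0.202 to 0.644 in WT set I and -0.198 to 0.0497 in WT set P. With log2 transcript length the 6 WT set I libraries gave r of -0.255 to -0.0748, and the part of this trend in the results below was not tested beyond the values given beside them. Comparisons were therefore also made within set P alone, with 6 KO and 6 WT libraries, and without the 6 WT set I libraries. Within set P the genotypes still differed in GC trend, at a mean r of -0.217 in KO and -0.0575 in WT.

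Promoter sequences are shown for Marco, Cd163, Vsig4 and Fcna, 4 of the markers called higher in KO livers over all 24 libraries. Of these, Cd163 and Vsig4 did not pass in set P alone. The sequences run from 250 bases before to 50 bases after the RefSeq gene start on GRCm38.p6, read 5′ to 3′ on the gene's strand. Capitals mark GAGGAA, the core of the element bound by the macrophage factor PU.1, wherever it occurs on either strand.
Marco (chr1:120504975-120505274, minus strand): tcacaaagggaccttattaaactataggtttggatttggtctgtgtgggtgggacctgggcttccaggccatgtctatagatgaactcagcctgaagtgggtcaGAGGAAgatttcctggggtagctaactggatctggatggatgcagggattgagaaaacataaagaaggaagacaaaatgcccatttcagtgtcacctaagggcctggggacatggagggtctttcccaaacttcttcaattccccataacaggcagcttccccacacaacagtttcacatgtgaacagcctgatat
Cd163 (chr6:124304401-124304700, plus strand): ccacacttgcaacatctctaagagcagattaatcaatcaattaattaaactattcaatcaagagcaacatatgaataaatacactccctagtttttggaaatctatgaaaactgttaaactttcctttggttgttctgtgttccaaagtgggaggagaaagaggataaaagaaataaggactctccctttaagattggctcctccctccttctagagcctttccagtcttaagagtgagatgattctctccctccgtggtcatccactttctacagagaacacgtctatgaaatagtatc
Vsig4 (chrX:96293389-96293688, minus strand): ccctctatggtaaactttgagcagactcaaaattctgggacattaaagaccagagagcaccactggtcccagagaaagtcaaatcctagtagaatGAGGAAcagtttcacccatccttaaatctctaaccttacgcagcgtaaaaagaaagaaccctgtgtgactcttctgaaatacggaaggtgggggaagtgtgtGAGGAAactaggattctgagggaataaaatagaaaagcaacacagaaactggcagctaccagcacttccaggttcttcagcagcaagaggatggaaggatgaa
Fcna (chr2:25627925-25628224, minus strand): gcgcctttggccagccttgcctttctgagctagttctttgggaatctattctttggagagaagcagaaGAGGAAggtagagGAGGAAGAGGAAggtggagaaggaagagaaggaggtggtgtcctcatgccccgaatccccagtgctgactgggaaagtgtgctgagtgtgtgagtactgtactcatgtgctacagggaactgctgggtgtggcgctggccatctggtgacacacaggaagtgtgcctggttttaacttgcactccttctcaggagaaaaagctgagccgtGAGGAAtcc
A promoter was matched for 7 of the 10 markers in the RefSeq table used, and GAGGAA occurred on either strand in 4 of these 7 (Marco, Vsig4, Fcna and Cd5l), against 28.3% of all 32851 promoters of the same length. Fcna held 4 of the matches, 2 of them next to each other without overlap. The palindromic PAR bZip element TTACGTAA occurred in 0 of 7 marker promoters and 0.119% of all promoters. Its variant TTATGTAA, read on both strands, occurred in 0 of 7 and 0.938%. The E-box CACGTG, bound by core clock factors, occurred in 0 of 7 and 7.15%. GAGGAA alone had matches, so matches of different motifs did not overlap, and the searches say only which letters stand in these windows.

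Averaged over the 6 times, 5 of the 10 markers were higher in KO than in WT livers at an adjusted p under 0.05 and 0 were lower (edgeR quasi-likelihood test, Benjamini-Hochberg over 15090 genes). Over all genes tested 12.1% were higher, 21.1% lower and 33.2% changed in either direction. The unadjusted p was under 0.05 for 5 of 10 markers and 7383 of 15090 genes (edgeR). At that threshold, without regard to direction, the share of the markers was close to that of all genes. The balance over all genes depended on the fit, with 1827 higher and 3180 lower here. It was 3605 and 2631 with no filter on low counts, where 30686 genes were tested. With a replicate block it was 3794 and 4104, with slopes for GC and length 2174 and 2346, and with both 3365 and 2791. Set I alone gave 2652 and 2429, and set P alone 1011 and 952. The median log2 change of the markers was 0.202, against -0.0202 over all genes. The 5 that rose were Marco, Cd163, Adgre1, Vsig4 and Fcna, which are 4 surface receptors and a secreted lectin. The 5 that did not pass were Clec4f, Timd4, Cd5l, C1qa and Csf1r. Within set P alone, 3 rose and 0 fell, against 6.7% of all genes higher, 6.31% lower and 13% in either direction. There 9 of 10 changes were positive, and the median was 0.28, against -4.62e-06 over all genes. The unadjusted p in set P was under 0.05 for 6 of 10 markers and 4388 of 15090 genes (edgeR). Within set I alone, 0 of 10 passed against 33.7% of all genes in either direction (edgeR). Changes in set I were larger than in set P for Adgre1 (0.49, SE 0.213), Cd163 (0.69, SE 0.365) and Vsig4 (0.31, SE 0.157). They were smaller for Marco (0.36, SE 0.517) and Fcna (0.09, SE 0.138). The standard errors of all 5 were wider in set I. In set I 6 of 10 changes were positive, and the median was 0.0663, against -0.0548 over all genes. At an unadjusted p under 0.05 it was 1 of 10 markers and 7415 of 15090 genes.

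**Figure D1:**
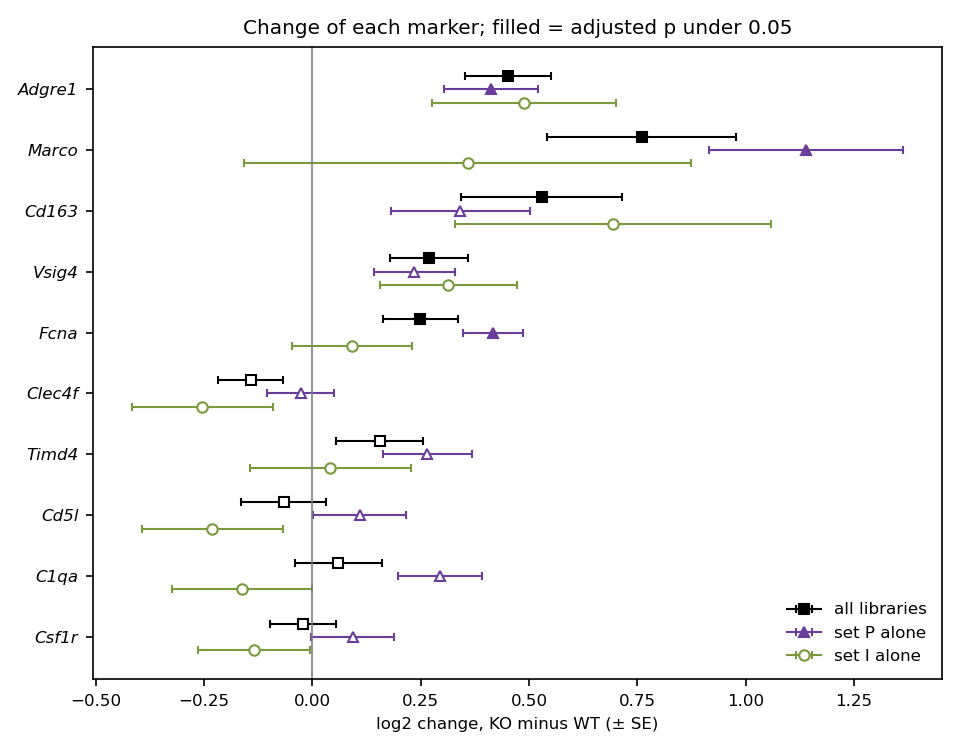
Log2 change of each marker, KO minus WT, with its standard error, in all 24 libraries (squares), set P alone (triangles) and set I alone (circles); filled symbols passed an adjusted p of 0.05. All 24 libraries call 5 markers higher, set P alone 3 (Adgre1, Marco and Fcna) and set I alone 0.

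Among the receptors, Adgre1 encodes the adhesion receptor by which mouse tissue macrophages are commonly recognised (chr17:57358691-57483527, plus strand, GRCm38). It measured 30.6 to 53.3 CPM in the 12 KO libraries with a median of 43.3, against 18.2 to 39 CPM with a median of 32.5 in the 12 WT libraries. The genotypes overlapped, yet 9 of 12 KO libraries lay above every WT library. Means were 42.2 ± 5.94 CPM in KO and 31.1 ± 6.42 CPM in WT (SD, n = 12 each). The averaged log2 change was 0.45 (SE 0.099, adjusted p = 0.00458, edgeR) and 0.41 in set P alone (SE 0.108, adjusted p = 0.0304, edgeR). KO means were above WT means at 6 of 6 times, and both KO libraries lay above both WT libraries at 5 of them.

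Marco encodes a scavenger receptor with a collagenous stalk that binds bacteria and polyanions (chr1:120474538-120505024, minus strand). KO libraries spanned 11.6 to 74.9 CPM with a median of 32.8, and WT libraries spanned 10.5 to 79 CPM with a median of 18.8. Both ranges are wide and cover each other, and the highest WT library and the lowest KO library are both set I libraries of ZT08. At the other 5 times both KO libraries lay above both WT libraries. The averaged log2 change was 0.76 (SE 0.218, adjusted p = 0.0184, edgeR), and 1.14 in set P alone (SE 0.224, adjusted p = 0.00767, edgeR), where means were 45.1 ± 17 CPM in KO and 21.1 ± 12.6 CPM in WT (SD, n = 6 each). In set I the means were 30.5 ± 11.2 and 30.4 ± 25.5 CPM in KO and WT, and the change did not pass (0.36, adjusted p = 0.597, edgeR). The difference of the change between sets was 0.92 on the log2 scale (adjusted p = 0.0837, edgeR).

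Cd163 encodes the scavenger receptor for complexes of haemoglobin and haptoglobin (chr6:124304656-124330527, plus strand). KO libraries spanned 15.3 to 48.7 CPM (median 33) and WT libraries 6.28 to 36.1 CPM (median 25.1). Of the 12 KO libraries, 5 lay above every WT library, and the rest overlapped. The averaged log2 change was 0.53 (SE 0.186, adjusted p = 0.0412, edgeR). Its call was lost in set P alone (0.34, adjusted p = 0.188, edgeR), without the 6 WT set I libraries (0.32, adjusted p = 0.193) and in 19 of the 24 fits that left out a single library. It held without the set I libraries of KO ZT16 or WT ZT20 and without the set P libraries of WT ZT04, ZT16 or ZT20 (log2 change 0.44 to 0.72).

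Vsig4 encodes the complement receptor CRIg, which captures complement-coated bacteria from the blood (chrX:96247203-96293438, minus strand). It measured 35.8 to 47.8 CPM in KO (median 42.6) and 21.6 to 41.4 CPM in WT (median 36.7). Of the 12 KO libraries, 7 lay above every WT library. Means were 41.9 ± 3.71 CPM in KO and 34.9 ± 5.97 CPM in WT (SD, n = 12 each). The averaged log2 change was 0.27 (SE 0.089, adjusted p = 0.0334, edgeR), with 0.24 in set P alone (adjusted p = 0.122, edgeR). Its call was also lost when the fit carried slopes for GC content and transcript length in each library (0.15, adjusted p = 0.139, edgeR). Leaving out single libraries lost the call in 9 of 24 fits (0.26 to 0.28, adjusted p 0.0508 to 0.0627), namely the set P libraries of KO ZT04, ZT08, ZT12 and ZT16, and the set I libraries of KO ZT20 and ZT24 and of WT ZT08, ZT12 and ZT16.

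Timd4 encodes TIM-4, a receptor for phosphatidylserine on dying cells that is kept by long-resident Kupffer cells (chr11:46810800-46844332, plus strand). It measured 17.8 to 28.3 CPM in KO (median 23.6) and 12.9 to 28.7 CPM in WT (median 21.3), with full overlap. The log2 change was 0.16 (SE 0.101, adjusted p = 0.216, edgeR). With slopes for GC and length it was -0.02 (adjusted p = 0.904, edgeR).

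Clec4f encodes a C-type lectin that in mice is restricted to Kupffer cells (chr6:83644542-83656187, minus strand). It measured 117 to 160 CPM in KO (median 136) and 116 to 233 CPM in WT (median 138). WT libraries averaged 164 ± 38.1 CPM in set I and 137 ± 15.7 CPM in set P (SD, n = 6 each). The log2 change of -0.14 did not pass (SE 0.075, adjusted p = 0.137, edgeR), and it was -0.03 in set P alone (adjusted p = 0.848, edgeR). Without the set P library of WT ZT04 it passed as lower (-0.18, adjusted p = 0.0475, edgeR).

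Csf1r encodes the receptor for the survival factors Csf1 and Il34 and is expressed by macrophages generally (chr18:61100598-61132149, plus strand). It measured 85.5 to 113 CPM in KO (median 103) and 78.3 to 140 CPM in WT (median 103). The log2 change was -0.02 (SE 0.076, adjusted p = 0.832, edgeR), and its sign turned under several settings. Of its 2 ligands, Il34 fell by 0.72 on the log2 scale (SE 0.156, adjusted p = 0.00413, edgeR), at 1.81 ± 0.487 CPM in KO and 2.92 ± 0.767 CPM in WT (SD, n = 12 each), and by 0.58 in set P alone (adjusted p = 0.0267, edgeR). Csf1 measured 15.4 ± 3.13 CPM in KO and 18.2 ± 5.44 CPM in WT, with a change of -0.22 that did not pass (adjusted p = 0.0757, edgeR). Csf1 was singled out after its values were seen.

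**Figure D2:**
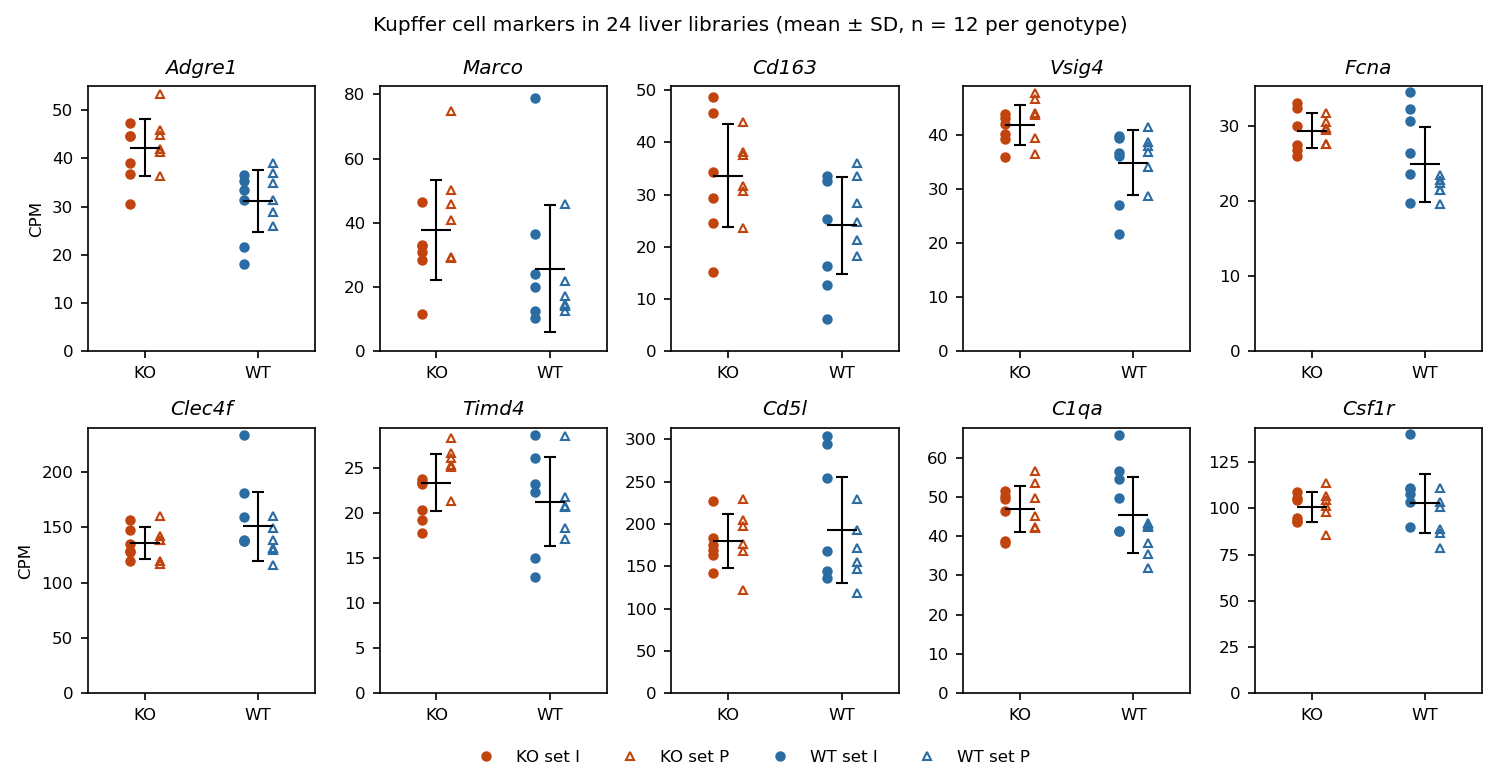
CPM of the 10 markers in each of 12 KO and 12 WT libraries, with set I as filled circles, set P as open triangles, and black bars for the mean ± SD of each genotype. For Fcna the 6 KO triangles lie at 27.6 to 31.7 CPM and the 6 WT triangles at 19.7 to 23.5 CPM, whereas WT set I circles reach 34.6 CPM.

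Among the secreted markers, Fcna encodes ficolin A, a lectin that binds microbial sugars and starts the lectin pathway of complement with the Masp proteases (chr2:25624666-25628030, minus strand). It measured 26 to 33.1 CPM in KO (median 29.6) and 19.7 to 34.6 CPM in WT (median 23.2), and all 12 KO libraries lay above the WT median. The averaged log2 change was 0.25 (SE 0.086, adjusted p = 0.0397, edgeR). In set P alone it was 0.42 (SE 0.069, adjusted p = 0.00289, edgeR), and there 6 of 6 KO libraries lay above all 6 WT libraries. In set I it was 0.09 (adjusted p = 0.612, edgeR), and the change differed between sets by 0.34 (adjusted p = 0.0488, edgeR). Fcna lies at percentile 82.2 of the tested genes in GC content and at percentile 14.1 in transcript length. With slopes for GC and length its change was 0.58 (adjusted p = 0.000133, edgeR). Leaving out the set P library of KO ZT20, WT ZT12 or WT ZT24, or the set I library of WT ZT12, took the adjusted p to 0.0557 to 0.0636 with changes of 0.24 to 0.26. The antisense gene Fcnaos covers Fcna over 3365 bases on the opposite strand, and it held 48 counts in the 12 KO and 42 in the 12 WT libraries, against 6059 and 4970 counts of Fcna.

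Cd5l encodes AIM, a secreted scavenger-receptor protein of macrophages (chr3:87357881-87371073, plus strand). It measured 122 to 230 CPM in KO (median 176) and 118 to 304 CPM in WT (median 169). The log2 change was -0.07 (SE 0.098, adjusted p = 0.585, edgeR) and turned to 0.11 in set P alone (adjusted p = 0.542, edgeR).

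C1qa encodes the A chain of C1q, the recognition molecule of the classical complement pathway, made largely by macrophages (chr4:136895917-136898803, minus strand). It measured 38.2 to 56.7 CPM in KO (median 47.9) and 31.9 to 65.8 CPM in WT (median 42.7). Over all libraries the log2 change was 0.06 (SE 0.101, adjusted p = 0.638, edgeR). The sets went opposite ways, at 0.29 in set P (adjusted p = 0.0705, edgeR) and -0.16 in set I (adjusted p = 0.437, edgeR). This difference between sets of 0.47 passed the test (SE 0.136, adjusted p = 0.0253, edgeR), as did that of Fcna, making 2 of 10 markers against 14.2% of all genes in this direction, 14.8% in the opposite one and 29% in either. C1qa has the highest GC content of the 10, at percentile 95.7 of tested genes, and the shortest transcript, at percentile 8.91. With slopes for GC and length, C1qa was higher in KO by 0.56 (adjusted p = 0.0106, edgeR), and without the 6 WT set I libraries by 0.27 (adjusted p = 0.0275, edgeR).

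The other chains of C1q, singled out after their values were seen, measured 48.9 ± 5.82 CPM in KO and 52.8 ± 13.9 CPM in WT for C1qb, and 44.3 ± 6.68 and 45.2 ± 8.88 CPM in KO and WT for C1qc (SD, n = 12 each). Their log2 changes of -0.10 (adjusted p = 0.49, edgeR) and -0.03 (adjusted p = 0.825, edgeR) did not pass. Of the 10 partners of the markers, which are ligands, co-subunits, proteases and substrates, 1 was higher, 2 were lower and 7 did not pass. Over all genes 12.1% were higher and 21.1% lower. The median log2 change of the partners was -0.15, against -0.0202 over all genes. The one higher was C1s1, a protease of the C1 complex, at 377 ± 22 CPM in KO and 332 ± 30.9 CPM in WT (log2 change 0.19, adjusted p = 0.0212, edgeR), and in set P alone it did not pass (0.14, adjusted p = 0.143, edgeR). Besides Il34, Masp2 fell by 0.30 (adjusted p = 0.0254, edgeR); it encodes a protease that ficolins activate, and in set P its change of -0.14 did not pass (adjusted p = 0.148, edgeR). Haptoglobin (Hp), whose complex with haemoglobin is the ligand of CD163, passed in set P alone (0.53, adjusted p = 0.0383, edgeR) and not over all libraries (0.28, adjusted p = 0.089, edgeR).

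Levels per length allow only a rough comparison between genes. The longest annotated transcript stands for all forms of a gene. The GC and length trends, strongest in WT set I, were not taken out. In KO livers the order, by mean CPM per kilobase of the longest transcript, was Cd5l (88.3 ± 15.5), Clec4f (54.9 ± 5.77), C1qa (45.2 ± 5.62), Vsig4 (29.3 ± 2.59), Csf1r (21.4 ± 1.71), Fcna (21.4 ± 1.67), Marco (19.6 ± 8.16), Adgre1 (13 ± 1.83), Timd4 (10.8 ± 1.47) and Cd163 (7.57 ± 2.21; SD, n = 12). Neighbours whose mean ± SD did not overlap were Cd5l and Clec4f, C1qa and Vsig4, and Vsig4 and Csf1r. In WT livers the order was the same except that Timd4 (9.80 ± 2.29) stood before Adgre1 (9.61 ± 1.98). There the neighbours apart from each other were C1qa (43.6 ± 9.31) and Vsig4 (24.4 ± 4.17), and Adgre1 and Cd163 (5.43 ± 2.11; SD, n = 12).

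**Figure D3:**
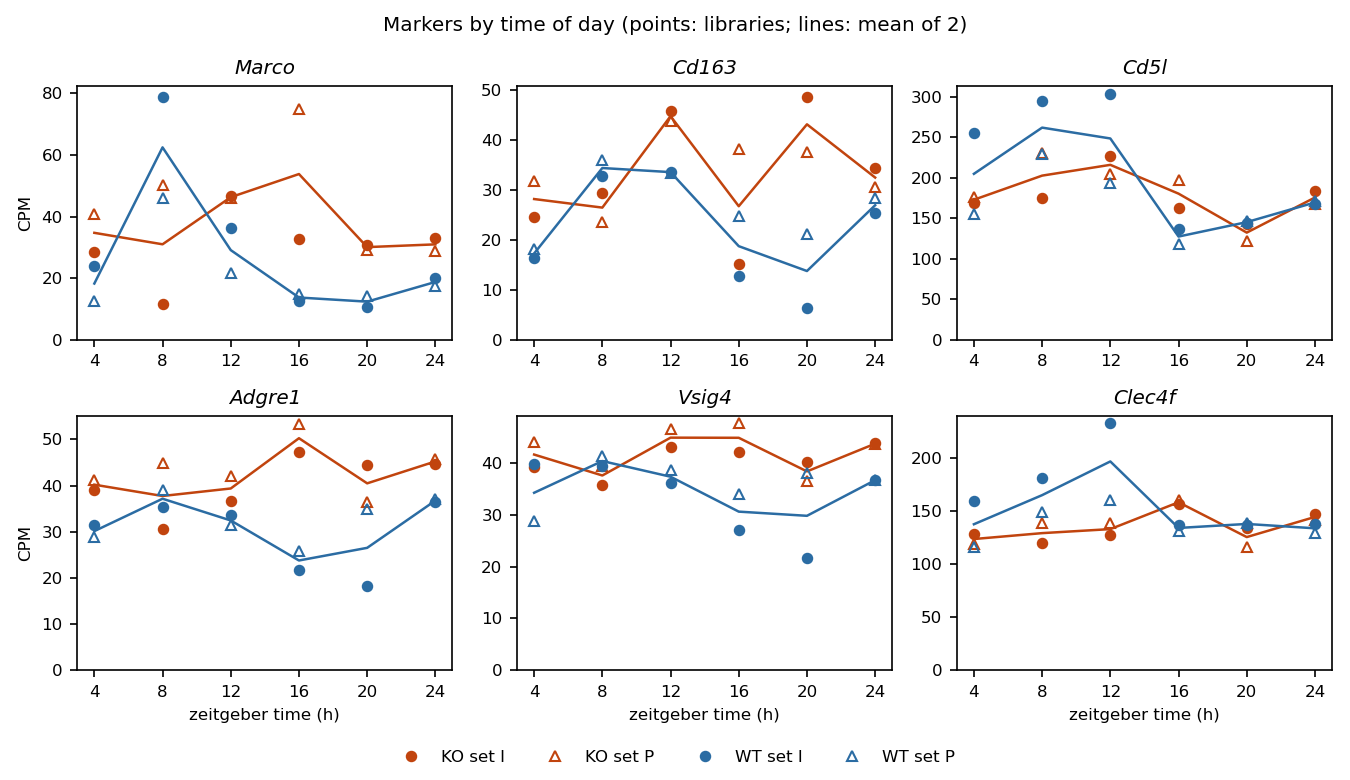
CPM of 6 markers against zeitgeber time in hours, KO in red and WT in blue, with set I as filled circles, set P as open triangles, and lines through the mean of the 2 libraries. KO Marco is spread from 11.6 to 74.9 CPM with no rhythm past the test, and WT Marco is highest at ZT08 (79 CPM in set I, 46 CPM in set P).

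By time of day, KO livers had a rhythm past the test in 0 markers and WT livers in 2. In KO livers 0 of 10 passed a test for a curve with a 24 h period against 3.57% of all genes (edgeR), and at an unadjusted p under 0.05 it was 0 markers and 2263 of 15090 genes. In WT livers Marco and Cd5l passed, against 8.67% of all genes, and at an unadjusted p under 0.05 it was 4 markers and 3393 of 15090 genes (edgeR). The KO curve of Marco had an amplitude of 0.35 (adjusted p = 0.769, edgeR). KO Marco in set I measured 28.5, 11.6, 46.6, 32.7, 30.9 and 33 CPM from ZT04 to ZT24, and in set P 41, 50.4, 46, 74.9, 29.3 and 29 CPM, with different highest times. The WT curve had an amplitude of 1.01 on the log2 scale with its peak at ZT 8.05 h (adjusted p = 0.0152, edgeR). WT Marco in set I measured 24, 79, 36.4, 12.5, 10.5 and 20.2 CPM from ZT04 to ZT24, and in set P 12.5, 46, 21.8, 14.9, 14.2 and 17.3 CPM, so both sets were highest at ZT08.

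For Cd5l the amplitude was 0.26 in KO (adjusted p = 0.386, edgeR) and 0.49 in WT, with the WT peak at ZT 7.77 h (adjusted p = 0.0136, edgeR). Both WT calls were lost without the set I library of WT ZT08 (Marco amplitude 0.76, adjusted p = 0.108; Cd5l 0.45, adjusted p = 0.0576; edgeR). A rhythm that passes in WT and not in KO is not shown to differ, and the difference of rhythm itself passed for 0 of 10 markers and 0 of 15090 genes (edgeR), with 1 marker and 791 genes at an unadjusted p under 0.05. That marker was Marco, with an adjusted p of 0.79 (edgeR). The genotype by time interaction likewise passed for 0 markers and 0 genes, with 1 marker, again Marco, and 966 genes at an unadjusted p under 0.05 (adjusted p = 0.704 for Marco, edgeR).

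**Figure D4:**
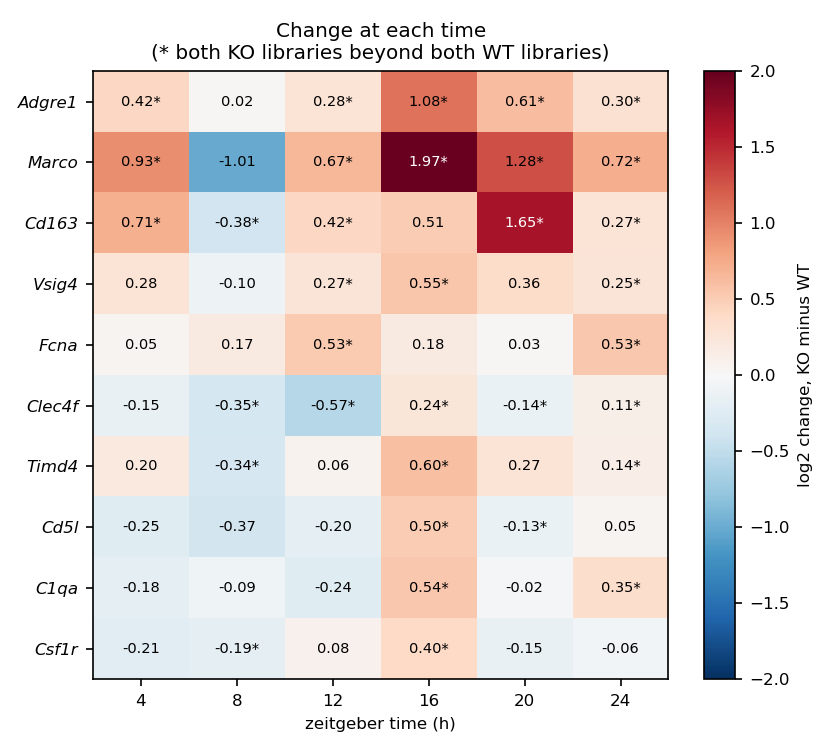
Log2 change of each marker at each zeitgeber time, KO minus WT, red for higher and blue for lower in KO; an asterisk marks times at which both KO libraries lay beyond both WT libraries. The ZT16 column is positive for all 10 markers and the ZT08 column for 2 of 10.

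At single times the comparison rests on 2 libraries per genotype, and the values are given as a description, since the interaction called no marker. At ZT16 all 10 log2 changes were positive with a median of 0.528, against 0.00439 over all genes, and both KO libraries lay above both WT libraries for 8 of 10 markers, against 29.8% of all genes. At the 6 times from ZT04 to ZT24, 1.26%, 0.934%, 1.85%, 1.65%, 3.93% and 0.676% of all genes passed the test in either direction, and among the markers Adgre1 at ZT16 was the only call (edgeR). At an unadjusted p under 0.05 there were 0, 0, 2, 6, 3 and 1 of the 10 markers, and 2605, 1228, 1751, 2732, 4785 and 949 of the 15090 genes. At ZT20 the share of the markers was close to that of all genes. The call of Adgre1 stood against 0.643% of all genes higher at ZT16. Adgre1 measured 47.3 and 53.3 CPM in KO ZT16 and 21.6 and 25.9 CPM in WT ZT16, a log2 change of 1.08 (SE 0.246, adjusted p = 0.038, edgeR). That call held in 6 of the 24 fits that left out a single library, those without either library of KO ZT08, WT ZT04 or WT ZT20. In the other 18 its change was 0.96 to 1.22 with an adjusted p of 0.0503 to 0.44. Marco measured 32.7 and 74.9 CPM in KO ZT16 and 12.5 and 14.9 CPM in WT ZT16, and did not pass (1.97, SE 0.551, adjusted p = 0.0955, edgeR).

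At ZT24 both KO libraries lay above both WT libraries for 8 of 10 markers too, against 18.7% of all genes, with a smaller median change of 0.262. The counts were 5 of 10 at ZT12 against 22.4%, 3 at ZT04 against 23.8% and 3 at ZT20 against 31.4%, shares nearer the background. Both KO libraries lay below both WT libraries for 1 marker at ZT12 (Clec4f), against 26% of all genes, and for 2 at ZT20 (Clec4f and Cd5l), against 30.6%. At ZT20 the markers with no overlap were Adgre1, Marco and Cd163. Cd163 measured 48.7 and 37.6 CPM in KO ZT20 and 6.28 and 21.2 CPM in WT ZT20, a change of 1.65 that did not pass (SE 0.466, adjusted p = 0.0573, edgeR). The 6.28 CPM library belongs to WT set I and is the lowest of all 24 for Cd163.

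At ZT08 the markers had a median log2 change of -0.268 and 2 of 10 positive. Both KO libraries lay above both WT libraries for 0 markers, against 21.1% of all genes, and below them for 4 (Cd163, Clec4f, Timd4 and Csf1r), against 24.4%. None of the 10 passed at ZT08 (edgeR). Marco measured 11.6 and 50.4 CPM in KO ZT08 and 79 and 46 CPM in WT ZT08, so the direction differed between sets.

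**Figure D5:**
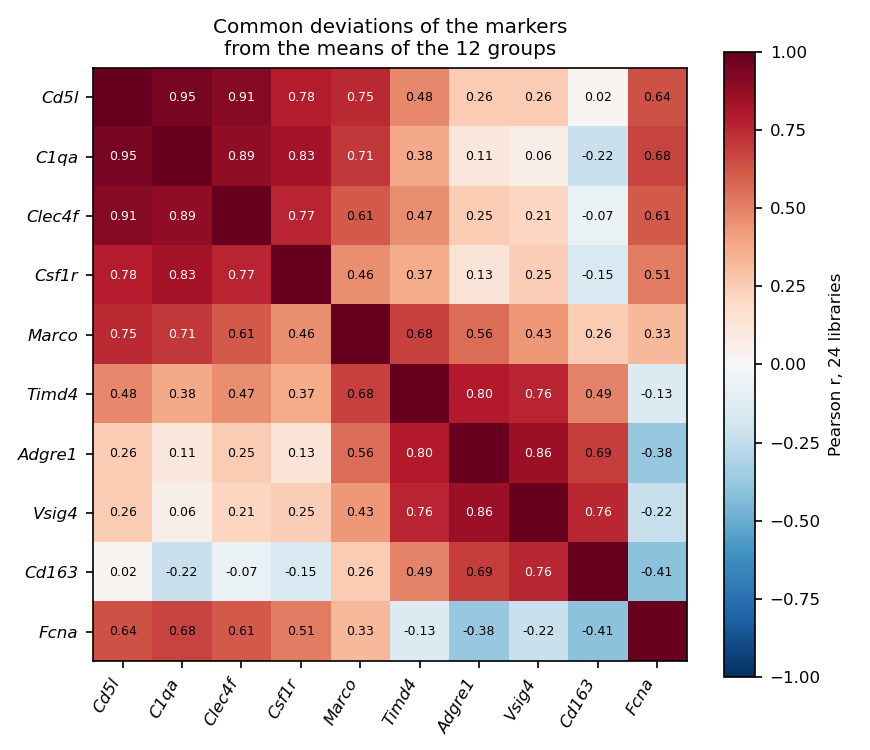
Pearson correlation between markers over 24 libraries after the mean of each of the 12 groups was taken out, from blue (-1) to red (1). Cd5l, C1qa and Clec4f form the strongest block (0.89 to 0.95), and Fcna runs against Cd163 (-0.41).

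After the mean of each group was taken out, the markers did not deviate as 1 block. Over 24 libraries the 45 pairs had a median Pearson r of 0.467 and a range from -0.408 to 0.949, as a description, since the libraries share sets and composition and each group gives 2 mirrored deviations. Cd5l and C1qa (0.949), Clec4f and Cd5l (0.907) and Clec4f and C1qa (0.887) went together, as did Adgre1 and Vsig4 (0.856). Each deviation sets the set I library of a group against its set P library, and WT set I stood apart in GC trend. GC percentiles among tested genes were 62.7 for Cd5l, 65.5 for Clec4f, 95.7 for C1qa and 82.2 for Fcna. They were 39 for Adgre1, 25.4 for Vsig4 and 43.2 for Cd163. The part of the GC trend in these correlations was not tested. Cd163 and Fcna had the lowest r with the mean of the other markers (0.209 and 0.249), and Cd5l the highest (0.843). The summed level of the 10 markers ran from 555 to 798 CPM in KO (median 663) and from 500 to 899 CPM in WT (median 609).

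Among the non-marker genes with the highest within-group r to the mean of the markers among 11513 candidates over 24 libraries were S1pr3 (0.896), Fermt3 (0.894), Fcgr1 (0.869), Siglece (0.868), Sdc3 (0.868), Hip1 (0.864) and Themis2 (0.858). Over raw values, S1pr3 and Hip1 had a lower r of 0.526 and 0.349, and the other 5 had 0.747 to 0.831. None of these 7 passed the averaged KO against WT test; their log2 changes ran from -0.12 to 0.23.

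Of 24 other genes of Kupffer cells and macrophages, 2 were higher, 0 lower and 22 did not pass. Over all genes 12.1% were higher and 21.1% lower. The median log2 change of the 24 was 0.0586, against -0.0202 over all genes. Slc40a1, which encodes the iron exporter ferroportin, measured 276 ± 51.1 CPM in KO and 215 ± 49.4 CPM in WT (SD, n = 12 each). Its log2 change was 0.36 (adjusted p = 0.0077, edgeR), and which cells of the bulk samples gave its RNA was not tested. Lyz2, the lysozyme of myeloid cells, measured 91.3 ± 26.8 CPM in KO and 72.1 ± 18.9 CPM in WT (0.33, adjusted p = 0.0327, edgeR). In set P alone, the mannose receptor gene Mrc1 (0.27, adjusted p = 0.0167) and the properdin gene Cfp (0.39, adjusted p = 0.00784, edgeR) were also higher. That made 4 higher and 0 lower of 24, against 6.7% and 6.31% of all genes. Mrc1 did not pass over all libraries, at 88.1 ± 8.48 CPM in KO and 52 ± 28.9 CPM in WT (0.79, adjusted p = 0.0796, edgeR).

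Of 8 transcription factors tied to Kupffer cell identity, 1 was higher, 2 were lower and 5 did not pass. The shares over all genes were 12.1% higher and 21.1% lower. Spic, a factor of iron-recycling macrophages, was higher at 3.04 ± 0.636 CPM in KO and 2.38 ± 0.838 CPM in WT (SD, n = 12 each; 0.41, adjusted p = 0.0374, edgeR), and in set P the change was 0.23 (adjusted p = 0.47, edgeR). Id3, an inhibitor of helix-loop-helix factors that Kupffer cells need, fell by 1.0 on the log2 scale (adjusted p = 0.000289, edgeR), and by 0.92 in set P alone. It measured 23.4 ± 8.18 CPM in KO and 49.1 ± 27.5 CPM in WT. Which cells of the bulk samples gave the Id3 RNA was not tested. Nr1h3, the LXR-alpha nuclear receptor, which hepatocytes also express, fell by 0.38 (adjusted p = 0.0161, edgeR), and in set P the change was -0.12 (adjusted p = 0.202, edgeR). Of 6 signals of the Kupffer cell niche, 1 fell, against 21.1% of all genes. It was Gdf2 (BMP9, made by stellate cells), which fell by 0.35 (adjusted p = 0.00593, edgeR). In set P the change of Gdf2 was -0.15 (adjusted p = 0.168, edgeR).

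Markers of the other cells a liver piece can hold were tested in the same fit, and their part in the marker results was not tested. For the counts below, the shares of all genes were 12.1% higher and 21.1% lower, and 6.7% and 6.31% in set P alone. Monocytes and monocyte-derived macrophages had 0 higher and 1 lower (Ly6c2) of 7 (0 and 0 in set P alone), with a summed level of 23.3 to 38.8 CPM in KO and 22.6 to 52.3 CPM in WT. Neutrophils had 0 higher and 2 lower (Ngp and Mpo) of 6 (0 and 1 in set P, Mpo), at 7.99 to 16.6 CPM in KO and 6.18 to 62 CPM in WT. Ngp measured 0.258 ± 0.317 CPM in KO and 1.32 ± 2.62 CPM in WT (SD, n = 12 each). Mpo measured 0.048 ± 0.0729 CPM in KO and 0.418 ± 0.805 CPM in WT. Both rest on few counts, and the median log2 change of the 6 neutrophil markers was 0.183. Of the markers that did not pass the filter, Trem2 held 25 counts in the 12 KO libraries and 17 in the 12 WT libraries, Gpnmb 45 in KO and 36 in WT, and Ly6g 4 in KO and 8 in WT. Dendritic cells had 1 higher (Ccr9) and 1 lower (Siglech) of 7 (0 and 1 in set P, Siglech), at 11.7 to 18.1 CPM in KO and 10.8 to 19.3 CPM in WT.

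B cells had 0 higher and 3 lower (Cd79a and Cd79b among them) of 5, and 0 and 0 in set P alone, at 0.821 to 6.92 CPM in KO and 1.64 to 9.69 CPM in WT. T and NK cells had 1 higher (Cd8a) and 1 lower (Nkg7) of 6 (0 and 1 in set P, Nkg7), at 2.88 to 12.2 CPM in KO and 2.83 to 7.90 CPM in WT. Lymphocyte markers were low in both genotypes. The sinusoidal endothelium had 1 higher (Kdr) and 0 lower of 10, at 483 to 638 CPM in KO and 427 to 545 CPM in WT. In set P alone Kdr did not pass (0.0217, adjusted p = 0.849, edgeR), and Clec4g was higher and Gpr182 lower.

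Stellate cells had 1 higher (Reln) and 1 lower (Colec11) of 10 (1 and 0 in set P, Rgs5), at 376 to 516 CPM in KO and 247 to 470 CPM in WT. Cholangiocytes had 1 higher (Sox9) and 1 lower (Krt19) of 4 (0 and 0 in set P), at 6.04 to 15.2 CPM in KO and 4.67 to 14.5 CPM in WT. Red blood cells had 1 higher (Hbb-bs) and 0 lower of 5, as in set P, at 146 to 418 CPM in KO and 160 to 338 CPM in WT. Hepatocyte genes had 0 higher and 5 lower of 8, with a median log2 change of -0.339. In set P alone 0 were higher and 2 lower (Alb and Ttr), with a median of -0.169. Their summed level overlapped narrowly, at 48202 to 75062 CPM in KO and 74338 to 104680 CPM in WT. Alb, which encodes albumin, led them, at 35381 ± 7323 CPM in KO and 62607 ± 8170 CPM in WT (SD, n = 12 each; log2 change -0.84, adjusted p = 6.9e-05, edgeR).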

How the data were processed

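Liver mRNA was sequenced in 24 libraries, and the file deposited by the authors holds raw counts, with Ensembl genes as rows and libraries as columns. The TruSeq Stranded mRNA kit and guanidinium thiocyanate extraction are named per the labels' protocols, and STAR 2.4.0i and mm10 per the submitters' processing notes. How reads were assigned to genes and strands is not given in the sources used here, so those of overlapping genes cannot be assigned: besides Fcna, Csf1r overlaps Hmgxb3 over 873 bases on the opposite strand and Mir6983 over 64 bases. Symbols, coordinates, lengths and GC content came from GENCODE M21, which matched 54495 of 54532 genes to a symbol. Promoters came from RefSeq.

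The deposited counts were tested in R 4.3.3 with the quasi-likelihood method of edgeR 4.0.16, after TMM scaling and filterByExpr by group (minimum 10 counts), in 1 fit of 12 group means. P-values were adjusted by Benjamini-Hochberg over 15090 genes and called under 0.05. Rhythms were tested in a fit with cosine and sine terms of 24 h period for each genotype. Subsets of libraries kept the same 15090 genes. Genes of a few CPM rest on few counts. Alternatives were other scalings, no filter, a replicate block, slopes for GC and length, single sets, libraries left out, and DESeq2 1.42.0.

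The markers and gene lists were chosen with earlier results of these data known. All 10 markers are named in every comparison, up to 4 genes of each other list with the smallest p, members that passed where 5 or fewer did, and 8 genes of like pattern with at least 1 CPM. Some genes that this rule names are not reported here. Genes of the lists that did not pass the filter were Trem2, Gpnmb, S100a4, Ly6g, Elane, Klrb1c and Cftr.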

Additional observations from a re-analysis of the deposited data

Results flagged for a closer look

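For 2 markers the change between genotypes differed between the sets of libraries by a test of that difference. The change of Fcna, KO minus WT, was larger in set P than in set I by 0.34 on the log2 scale (SE 0.119, adjusted p = 0.0488, edgeR), a call lost with RLE factors (0.31, adjusted p = 0.0594) and with no filter (0.35, adjusted p = 0.154). In set P it was 29.4 ± 1.60 CPM in KO and 21.9 ± 1.35 CPM in WT, and in set I 29.3 ± 3.01 CPM in KO and 27.9 ± 5.62 CPM in WT (SD, n = 6 each). The change of C1qa was larger in set P than in set I by 0.47 (SE 0.136, adjusted p = 0.0253, edgeR). In set P it was 48.3 ± 6.08 CPM in KO and 39.0 ± 4.66 CPM in WT, and in set I 45.7 ± 5.87 CPM in KO and 51.6 ± 9.51 CPM in WT (SD, n = 6 each). In both genes the KO means of the sets lay close together and the WT means apart. The part of the GC and length trend of WT set I in these differences was not tested.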

How the results depend on the processing

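Over 12 alternatives to the averaged comparison, Adgre1 passed in 11, Marco in 10, Cd163 and Fcna in 9 each, Vsig4 in 6, C1qa in 3, and Clec4f, Timd4, Cd5l and Csf1r in 0. The cause of the changes below was not tested. Csf1r turned to 0.00452 with RLE factors, 0.00438 with DESeq2, 0.147 with GC and length slopes (0.147 with the block too), 0.0926 in set P and 0.0904 without the 6 WT set I libraries. Cd5l turned to 0.0669 with the slopes (0.0674 with the block too), 0.109 in set P and 0.101 without WT set I, Timd4 to -0.0171 with the slopes (-0.0142 with the block too), and C1qa to -0.16 in set I. Markers higher numbered 5 in the main fit, 3 with no filter, 3 with a replicate block by time, 3 in set P and 0 in set I. Besides the losses in set I (all 5 markers), set P (Cd163 and Vsig4) and without WT set I (Cd163), the calls lost were Vsig4 (0.27, adjusted p = 0.1) and Fcna (0.25, 0.15) with no filter, Marco (0.71, 0.0547) and Vsig4 (0.28, 0.0516) with the block by time, Fcna with upper-quartile scaling (0.21, 0.0912), and Vsig4 with slopes (0.15, 0.139) and with slopes and block (0.15, 0.121, all edgeR). With RLE factors 1 marker differed between sets, as Fcna was lost (0.31, adjusted p = 0.0594). With no filter Fcna was lost too (0.35, adjusted p = 0.154) and Marco gained (0.93, adjusted p = 0.0352). Genes called numbered 5007, against 1963 in set P and 2855 without WT set I.

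With no filter on low counts, 30686 genes were tested over all libraries. Genes called from ZT04 to ZT24 then numbered 1079, 416, 632, 1533, 3130 and 343, with 2 markers at ZT16 and 2 at ZT20. The interaction called 639 genes and 2 markers, and the difference of rhythm 72 genes and 1 marker. Set P alone called 2703 genes and 7 markers, and the number of genes tested there is not reported here. In that fit Marco had an adjusted p of 1.17e-38, against 0.00767 with the filter (edgeR), so these calls are given only as a description. Libraries of the same letter and time, KO against WT, had deviations correlated at r of 0.168, 0.113, 0.218, 0.0636, 0.042 and 0.0778, all positive but above 0.1 at only 3 of 6 times, so the letters were not taken to pair the libraries. The replicate block called 7898 genes, 370 at ZT04, 469 at ZT16, 2871 at ZT20 (1 marker) and 7 for the interaction, and it changed no call of a marker in the averaged comparison.

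Leaving out 1 library at a time, in 24 fits, genes called ranged from 3359 to 9084, and without the set P library of WT ZT04, ZT16 or ZT20 they numbered 7892, 7683 and 9084. Markers higher ranged from 2 to 5 and lower from 0 to 1, Csf1r from -0.0698 to 0.0646 (12 of 24 turned) and Cd5l from -0.119 to 0.0257. Genes called ranged from 41 to 399 at ZT04, 46 to 195 at ZT08, 72 to 406 at ZT12, 71 to 568 at ZT16, 50 to 8111 at ZT20 and 38 to 130 at ZT24. Markers ranged from 0 to 1 lower at ZT12, 0 to 2 higher at ZT16 and 0 to 3 higher at ZT20. Rhythmic genes ranged from 390 to 860 in KO and 841 to 2142 in WT (0 to 2 markers), the difference of rhythm from 0 to 3 and the interaction from 0 to 13.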
